A study of Mus musculus with 60 samples.

Results

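The red cell membrane skeleton genes described here are Ank1, Epb4.1, Add1, Add2, Tmod1 and Mpp1, 6 entries chosen by name from the 23393 named entries of a table of normalised counts. All 6 passed the filter on low values that left 10720 genes to test. Epb4.1 is the table's older symbol of the gene now called Epb41. RNA was measured in erythroblasts sorted from mouse fetal liver on the C57BL/6 background, from wild type embryos and from Gata1s embryos. Gata1s is the short form of the erythroid transcription factor GATA1, which lacks the N-terminal activation domain. How the allele was made, the sex of the embryos and whether a library pools embryos are not given in the sources used here. Cells were taken on the embryonic days labelled E12.5 and E14.5 and sorted as R1/2, high for the transferrin receptor CD71 and negative to medium for Ter119, or as R3, high for both. The R3 sort holds the more mature erythroblasts. The 20 RNA libraries of 60 samples form 8 groups. Wild type has 2 R1/2 and 3 R3 libraries at E12.5 and 2 of each sort at E14.5. Gata1s has 4 R1/2 and 2 R3 libraries at E12.5 and 3 R1/2 and 2 R3 libraries at E14.5. Since the labels do not say that libraries came from separate embryos, every p below reflects the spread between libraries, which may be technical.

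The membrane skeleton is the protein mesh under the red cell membrane that lets the cell deform and recover its shape. Ankyrin 1, encoded by Ank1, ties the mesh to the anion exchanger band 3. Protein 4.1 (Epb4.1) and the protein p55 (Mpp1) join it to glycophorin C at the junctions where short actin filaments meet. The α and β adducins (Add1, Add2) cap one end of these filaments as a heteromer, and tropomodulin 1 (Tmod1) caps the other. The genes are known to be induced as erythroblasts mature, and inherited defects of ankyrin 1 and protein 4.1 cause spherocytosis and elliptocytosis in humans.

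The libraries held 6.93 to 32.7 M reads, and 1 read was worth 0.36 to 4.72 normalised counts. The lowest member value in a library was 172 normalised counts, for Tmod1, which rested on 264 reads. The members together made 0.172 to 1.48% of a library's values. All 5 erythroblast markers used here (Klf1, Epor, Tfrc, Alas2, Ermap) were detected in every group. Detection alone does not tell the cell type, since all 8 hepatoblast and all 7 macrophage markers were detected in every group too. The summed erythroblast markers were at least 25289 in every library, and the sum of any other marker list was at most 17755. The lists hold different genes, so these sums do not measure shares of cells. Library names carry a prefix, JC or MS, whose meaning is not given. All 4 Gata1s R3 libraries are MS, and wild type has 1 MS library in each group, so the comparisons in R3 rest in part on a prefix term estimated from other groups. On the log2 scale this term, MS minus JC, was 0.44 for Epb4.1 and for Tmod1 (limma adjusted p = 0.0135 and 0.02). For the other members it was 0.17 to 0.28 and not called. The normalised counts and overlaps given below are not adjusted for it. The wild type E14.5 R1/2 libraries stand apart from each other: the summed neutrophil and monocyte markers were 17755 in replicate 1 and 729 in replicate 2.

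By the RefSeq annotation of GRCm38.p6, Ank1 lies on chromosome 8 at 22974836 to 23150501, Epb4.1 on chromosome 4 at 131923413 to 132075346, and Tmod1 on chromosome 4 at 46038940 to 46116032. Add1 lies on chromosome 5 at 34573664 to 34632308, Add2 on chromosome 6 at 86028681 to 86124409, and Mpp1 on chromosome X at 75109733 to 75131016. Promoter windows of 250 bases before the start were found for 5 of the 6 members in the RefSeq table, in 7 windows, and none for Ank1. They were searched on both strands for the GATA motif, spelled AGATAA or, with another first letter, TGATAA, each also with a final G, which 26.5% of 32851 promoters of this length hold. A match was present in Mpp1 (first base at -147), in the first of 3 start sites of Epb4.1 (-184) and in Add2 (-234). It was not present in the Add1 or Tmod1 window or at the other 2 start sites of Epb4.1. The Tmod1 window (chr4:46038972-46039221, plus strand) lies inside the gene span given above, so the bases before that span were not searched. The first Epb4.1 window overlaps the end of its gene span. The motif CACCC, present in 52% of promoters, occurred in the windows of Tmod1 (-141 and -87), Add2 (-131) and Mpp1 (-21). Shown here, because the genotype results turn on these genes, are the windows of Mpp1 (chrX:75131017-75131266, minus strand), Epb4.1 (chr4:132075314-132075563, minus strand), Add2 (chr6:86028431-86028680, plus strand) and Add1 (chr5:34573414-34573663, plus strand). Each is read 5′ to 3′ on the gene's strand, and capitals mark the GATA motif, which in all 3 windows lies on the opposite strand. A match is a description of letters and not a binding site.
Mpp1: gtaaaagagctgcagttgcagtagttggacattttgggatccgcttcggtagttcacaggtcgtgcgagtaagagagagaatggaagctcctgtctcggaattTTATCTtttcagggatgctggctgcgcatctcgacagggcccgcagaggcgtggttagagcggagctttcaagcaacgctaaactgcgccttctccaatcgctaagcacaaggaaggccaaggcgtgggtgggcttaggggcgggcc
Epb4.1: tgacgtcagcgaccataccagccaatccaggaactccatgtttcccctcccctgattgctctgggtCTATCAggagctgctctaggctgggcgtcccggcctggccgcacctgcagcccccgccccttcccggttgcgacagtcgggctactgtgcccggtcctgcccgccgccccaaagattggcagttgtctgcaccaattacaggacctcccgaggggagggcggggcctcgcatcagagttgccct
Add2: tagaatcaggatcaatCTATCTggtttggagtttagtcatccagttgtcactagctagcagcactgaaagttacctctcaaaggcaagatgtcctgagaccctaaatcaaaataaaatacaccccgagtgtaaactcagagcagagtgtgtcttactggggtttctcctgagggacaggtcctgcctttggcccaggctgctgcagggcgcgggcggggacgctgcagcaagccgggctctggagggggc
Add1: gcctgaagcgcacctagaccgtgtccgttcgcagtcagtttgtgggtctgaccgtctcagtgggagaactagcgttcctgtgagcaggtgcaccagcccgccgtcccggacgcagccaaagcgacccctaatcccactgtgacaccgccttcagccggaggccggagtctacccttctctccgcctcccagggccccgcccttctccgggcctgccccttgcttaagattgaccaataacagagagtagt

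All 6 genes rose from R1/2 to R3 in both genotypes and on both days. In wild type at E12.5, Tmod1 was at 244 and 172 normalised counts in the R1/2 libraries and at 4241, 4919 and 6391 in the R3 libraries. At E14.5 it was at 216 and 480 in R1/2 and at 8395 and 13155 in R3. The sorts were thus far apart on both days, and Tmod1 had the largest increase of the 6 in wild type, 4.71 ± 0.21 (SE) at E12.5 and 5.03 ± 0.23 at E14.5 on the log2(normalised count + 1) scale (limma, adjusted p = 1.57e-11 and 1.18e-11). The adducins had the smallest increases in wild type at E12.5, 2.21 ± 0.11 for Add1 and 2.13 ± 0.14 for Add2. Epb4.1 rose by 3.75 ± 0.19, Mpp1 by 3.78 ± 0.17 and Ank1 by 2.85 ± 0.14 there. The count was 6 of 6 members higher in each of the 4 comparisons, against 35.9% of all genes tested called higher in wild type at E12.5, 37.7% in wild type at E14.5, 33.9% in Gata1s at E12.5 and 38.7% in Gata1s at E14.5. The median over the members was 3.30 and 3.82 in wild type and 1.75 and 3.68 in Gata1s, at E12.5 and E14.5, and the median over all genes tested was between -0.12 and -0.04. No library of R1/2 reached the lowest R3 library of any member, a separation found higher in R3 for 38.7 and 40.7% of all genes in wild type and for 38.6 and 41.4% in Gata1s. The counts of 6 held in every alternative run. With values scaled to each library's total the median of all genes tested moved to between -1.16 and -0.34.

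**Figure D1:**
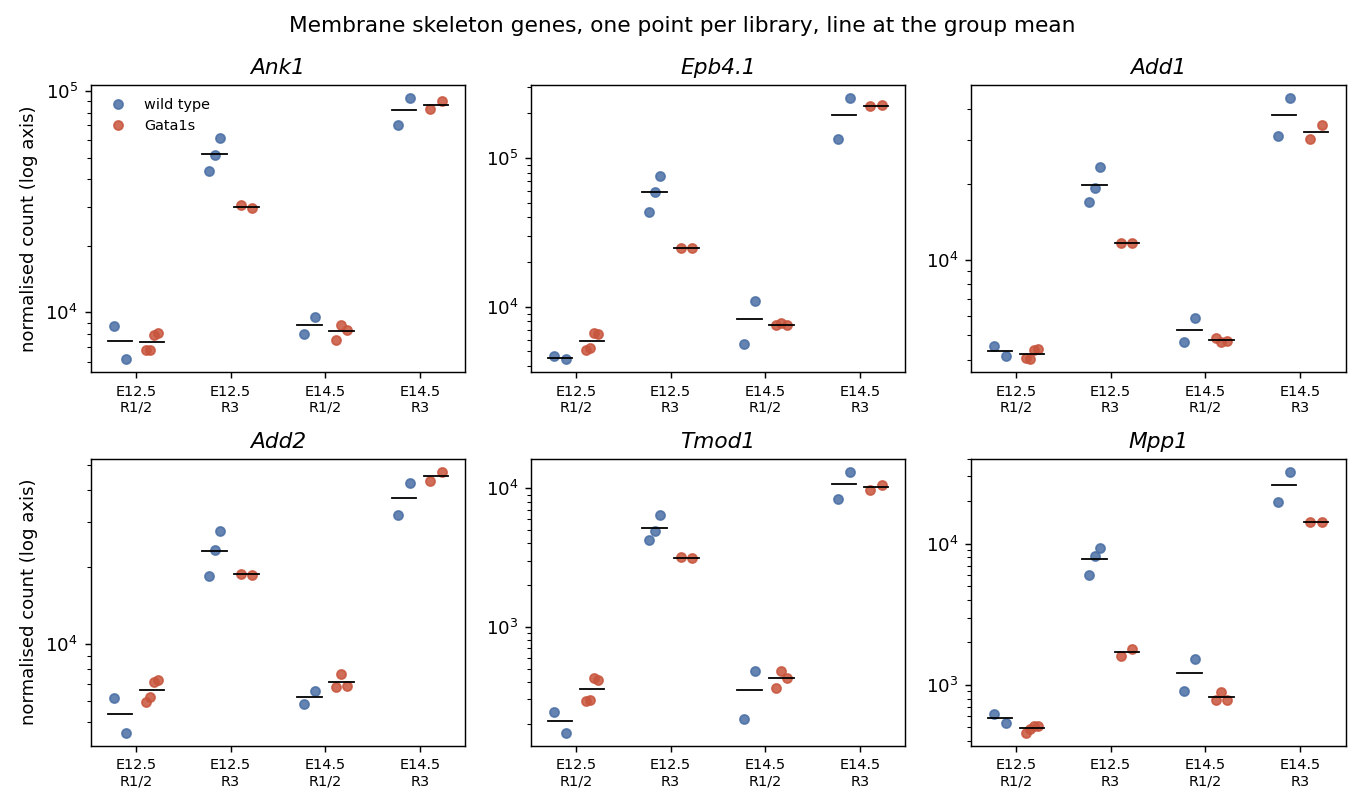
Normalised count of each gene on a log axis, 1 point per library, wild type in blue and Gata1s in red, with a line at the group mean. Every R3 point lies above every R1/2 point of the same gene, and in E12.5 R3 the Gata1s libraries lie below wild type except in Add2.

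**Figure D2:**
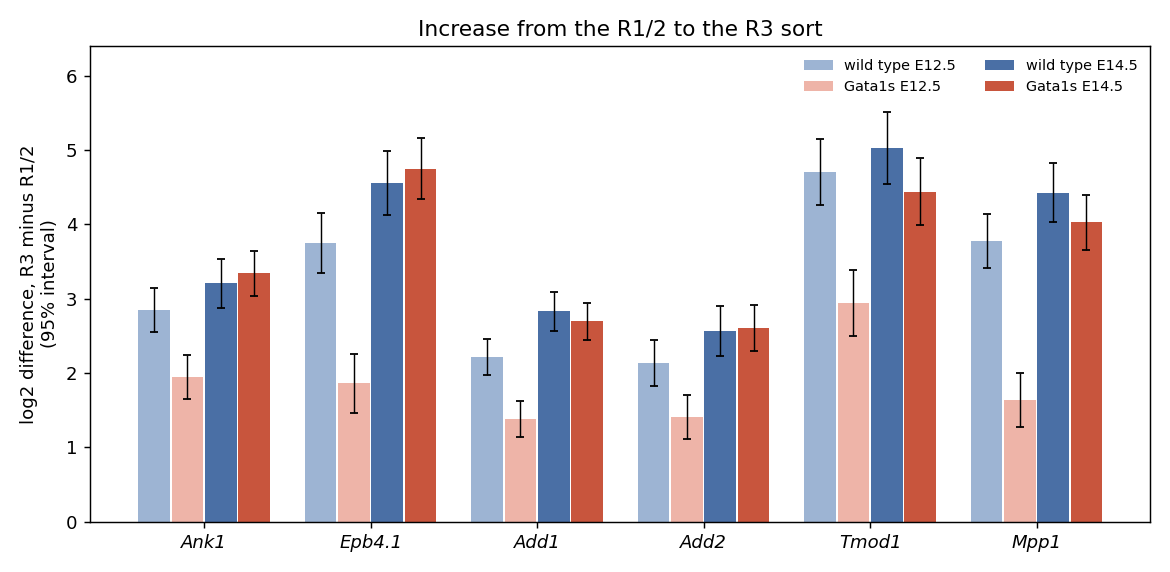
Log2 difference of R3 over R1/2 for each gene, with 95% intervals, by genotype and day. The Gata1s bars at E12.5 are lower than the wild type bars for all 6 genes, whereas at E14.5 the intervals of both genotypes overlap.

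In Gata1s erythroblasts at E12.5 the increase was smaller. Mpp1 rose by 1.64 ± 0.17 in Gata1s against 3.78 in wild type, Epb4.1 by 1.86 ± 0.19 against 3.75, and Tmod1 by 2.94 ± 0.21 against 4.71. The difference between genotypes in the R1/2 to R3 change, tested as an interaction, was lower in Gata1s for 6 of 6 members, where 11.2% of all genes tested were called lower. Its size was -2.13 ± 0.24 for Mpp1 (adjusted p = 0.000103), -1.89 ± 0.27 for Epb4.1 (0.000442), -1.77 ± 0.30 for Tmod1 (0.0013), -0.91 ± 0.20 for Ank1 (0.00701), -0.84 ± 0.16 for Add1 (0.00326) and -0.72 ± 0.21 for Add2 (0.0265). The call for Add2 was lost without any 1 of 7 libraries, with -0.43 and an adjusted p of 0.0972 without replicate 2 of wild type E12.5 R1/2 and -0.59 and 0.116 without replicate 3 of wild type E12.5 R3. It was also lost without the prefix term (-0.61, 0.094), with only the groups compared (-0.70, 0.0646), with values scaled to the library total (-0.27, 0.204) and with quantile normalisation (-0.25, 0.362), as was that for Ank1 with quantile normalisation (-0.20, 0.481). At E14.5 none of the 6 had a called interaction with limma, where 15.7% of all genes did, and the Gata1s increases were 2.60 to 4.75.

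The largest genotype difference was in R3 at E12.5, where 5 of the 6 genes were lower in Gata1s. The share of all genes tested called lower there was 21.7%, and the median was -0.94 over the members and -0.00 over all genes. Mpp1 was at 5970, 8171 and 9399 normalised counts in the wild type libraries and at 1606 and 1789 in Gata1s. Epb4.1 was at 43509, 59005 and 76365 in wild type and at 24673 and 24718 in Gata1s. For both genes every Gata1s library lay below every wild type library, as for 31% of all genes tested, and the differences were -2.37 ± 0.18, a 5.18-fold lower level of Mpp1 (adjusted p = 2.18e-07), and -1.52 ± 0.20, or 2.88-fold, for Epb4.1 (2.85e-05).

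Ank1 was at 43357, 51699 and 61393 in wild type E12.5 R3 and at 30459 and 29740 in Gata1s. Add1 was at 16949, 19281 and 23452 against 11670 and 11636. Tmod1 was at 4241, 4919 and 6391 against 3170 and 3145. None of these groups overlapped, and each Gata1s pair agreed closely while the wild type libraries spread. Both Gata1s libraries are MS, and the highest wild type value of each of these genes is from the lone MS library of that group. Genotype and prefix thus cannot be told apart in this spread. The differences were -0.90 ± 0.15 for Ank1 (limma adjusted p = 0.000253), -0.88 ± 0.12 for Add1 (4.58e-05) and -0.99 ± 0.22 for Tmod1 (0.00253). Add2 was the exception. It was at 18456, 23213 and 27550 in wild type and at 18818 and 18644 in Gata1s, so the groups overlapped, and its difference of -0.39 ± 0.15 did not pass (adjusted p = 0.0562). It passed with DESeq2 (-0.41, 0.0311), with only the groups compared (-0.56, 0.0193), within MS (0.000394), without replicate 1 of wild type E12.5 R3 (-0.50, 0.0147) and without either wild type E12.5 R1/2 library (-0.46, 0.00308). Within the MS libraries alone, where the lone wild type library is assumed to vary like the other groups, all 6 differences were negative, from -2.47 for Mpp1 to -0.56 for Add2. Without the prefix term Tmod1 was at -0.69 with an adjusted p of 0.0714, and with quantile normalisation Ank1 was at -0.21 with 0.208 and Add2 at 0.07. With values scaled to the library total the median of all genes tested moved to 0.38 and Add2 to 0.05.

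Other measures moved with this comparison. The summed erythroblast markers were 124794 to 125362 in the Gata1s libraries of E12.5 R3 against 222094 to 323833 in wild type, and globin reads were 3.12 to 3.26% against 8.5 to 9.69%. The summed megakaryocyte markers were 2025 to 2350 against 745 to 1164, with all 7 detected. Most of that gap was Itga2b, with a mean of 1556 in Gata1s against 375 in wild type, while Gp9 (90 against 156) and Ppbp (8.58 against 39.3) had lower means in Gata1s. Their part in the difference was not tested. In bulk samples fewer cells of a type and less RNA per cell cannot be told apart.

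**Figure D3:**
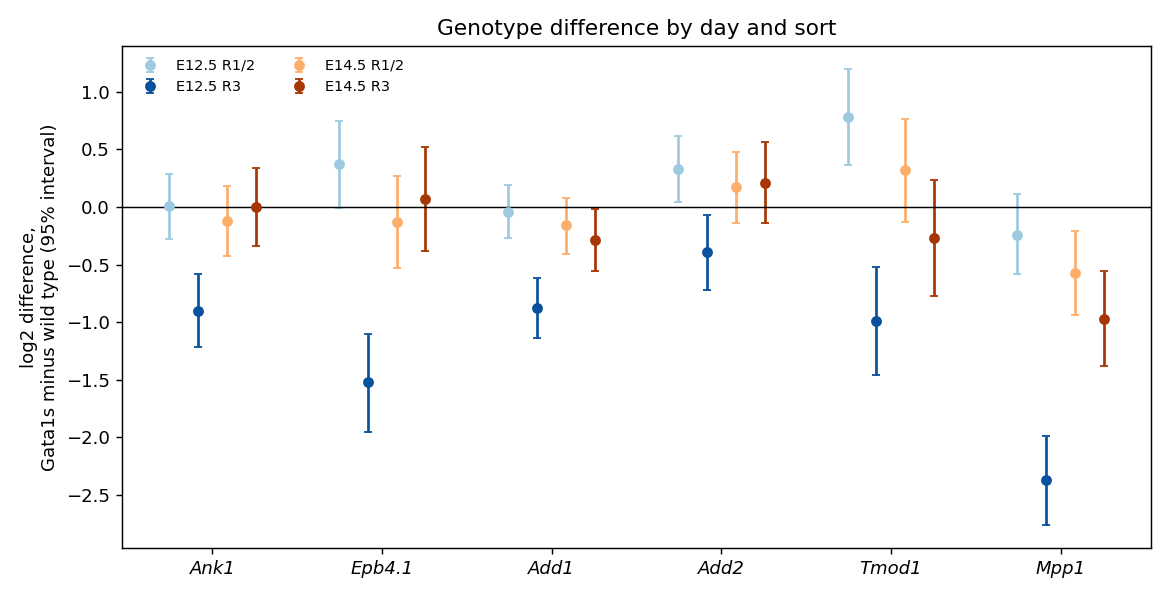
Log2 difference of Gata1s over wild type for each gene in the 4 combinations of day and sort, with 95% intervals. The E12.5 R3 points are the lowest of every gene, and the 4 points of Mpp1 and of Add1 are all below 0, those of Mpp1 farthest in R3 on both days.

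At E14.5 the R3 libraries of the genotypes overlapped for 4 of the 6 members. Ank1 was at 70576 and 93109 in wild type and at 82710 and 89966 in Gata1s. Epb4.1 was at 134887 and 254145 against 223927 and 227222, and Add1 at 31207 and 44106 against 30408 and 34310. For these genes and for Tmod1, at 8395 and 13155 against 9787 and 10547, the groups overlapped. The interval of the difference was -0.34 to 0.34 for Ank1, -0.38 to 0.52 for Epb4.1, -0.56 to -0.02 for Add1 and -0.77 to 0.23 for Tmod1, and for each of these genes the E12.5 value lay below its interval. Mpp1 was at 19770 and 32424 in wild type and at 14385 and 14159 in Gata1s. It was the 1 member called, with both Gata1s libraries below wild type as in 31.5% of all genes, and a difference of -0.97 ± 0.19 (limma adjusted p = 0.000985; 20.7% of all genes called lower). Add2 was at 31769 and 42373 against 43138 and 46925, with both Gata1s libraries above wild type, as in 25.8% of all genes, and a difference of 0.21 ± 0.16 that did not pass (0.333). Within MS, where wild type has 1 library here, Add1 was at -0.45, Tmod1 at -0.37 and Epb4.1 at -0.17. Epb4.1 thus had the other sign than over all libraries, where it was at 0.07. Other measures were apart here as well. Globin reads were 9.22 to 10.9% in Gata1s against 12.9 to 13.1% in wild type, and the summed erythroblast markers were 423183 to 426296 against 449088 to 620518. The summed megakaryocyte markers were 3024 to 4030 against 880 to 1067, and the endothelial ones 124 to 129 against 71.1 to 104. Most of the megakaryocyte gap was Itga2b, with a mean of 2731 in Gata1s against 224 in wild type, while Gp9 had a lower mean (191 against 242). Of the endothelial markers only Kdr had a higher mean in Gata1s (112 against 38.6), and Pecam1, Cdh5, Tek and Emcn had lower ones. The summed macrophage markers were 148 to 159 against 347 to 425. The sums were 78.1 to 184 against 326 to 3629 for hepatoblasts and 814 to 1213 against 1398 to 3107 for neutrophils and monocytes. Their part in the difference was not tested.

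The change of the genotype difference in R3 from E12.5 to E14.5 was itself tested, and 4 of 6 members were called higher. Of the 10720 genes tested, 1445 were called higher, and 23% were called in either direction. In R1/2 none of the 6 was called with limma, where 0.00933% of all genes were. In R3 Epb4.1 changed by 1.59 ± 0.28 (limma adjusted p = 0.00107), Mpp1 by 1.41 ± 0.25 (0.00134), Ank1 by 0.90 ± 0.21 (0.007) and Add1 by 0.59 ± 0.17 (0.0208). Add2, at 0.60 ± 0.21, and Tmod1, at 0.72 ± 0.31, did not pass (0.0523 and 0.105). The call for Add1 was lost without any 1 of replicate 3 of wild type E12.5 R3 (0.062), replicate 1 of wild type E14.5 R3 (0.136), either Gata1s E12.5 R3 replicate (0.0578 and 0.0575) and replicate 2 of Gata1s E14.5 R3 (0.0875). With quantile normalisation the calls for Ank1 (0.26, 0.32) and Add1 (0.24, 0.142) were lost, and that for Add1 also without the prefix term (0.0777) and with scaling to the library total (0.0983).

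Levels in R3 rose with the day in both genotypes for 6 of 6 members, where 21.1% of all genes rose in wild type and 29.5% in Gata1s. In wild type the increases ran from 0.62 ± 0.14 for Ank1 to 1.67 ± 0.17 for Mpp1, and no E12.5 library reached the lowest E14.5 library of any member, as for 26.9% of all genes. In Gata1s they were 3.19 ± 0.21 for Epb4.1, 3.07 ± 0.19 for Mpp1 and 1.26 to 1.69 for the other 4, again with no overlap, as for 38.1% of all genes. The wild type calls for Ank1 and Add2 were lost without replicate 2 of wild type E14.5 R3 (0.0626 and 0.0538), and with values scaled to the library total those for Ank1 (0.05), Add2 (0.09) and Tmod1 (0.40) were lost. With quantile normalisation the wild type value for Ank1 turned to -0.05, those for Add1, Add2 and Tmod1 were lost (0.20, 0.03 and 0.48), and in Gata1s those for Ank1 and Add2 (0.20 and 0.18) were lost. For Ank1, Epb4.1, Add1 and Tmod1 the R3 levels thus ran from Gata1s E12.5 over wild type E12.5 to both E14.5 groups, which overlapped. For Mpp1 the order was Gata1s E12.5, wild type E12.5, Gata1s E14.5 and wild type E14.5, with no overlap between neighbours.

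In R1/2 the genotypes differed little in the members. Erythroblast marker sums were 25289 to 30594 in Gata1s against 34512 to 35267 in wild type at E12.5. At E14.5 they were 30303 to 31668 against 37294 to 48844. Megakaryocyte sums were 822 to 1324 against 338 to 374 at E12.5 and 659 to 750 against 232 to 262 at E14.5. Most of that gap was Itga2b. Endothelial sums were higher in Gata1s, and hepatoblast sums overlapped. Macrophage and neutrophil sums overlapped on 1 day each. The part of these sums was not tested. At E12.5 Tmod1 was called higher in Gata1s, at 292, 298, 427 and 412 against 244 and 172 in wild type. The groups did not overlap, as for 17.2% of all genes, and the difference was 0.78 ± 0.20 (limma adjusted p = 0.0195), 1 of 6 members where 4.95% of all genes were called higher. It rested on 1 library, since without replicate 2 of wild type E12.5 R1/2 it was 0.24 with an adjusted p of 0.476, and within JC it was 0.27. The other 5 members were between -0.24 and 0.37 and not called, and the sign of Ank1, Add1, Add2 and Mpp1 depended on single wild type libraries. At E14.5 Mpp1 was called lower, at 785, 885 and 785 against 912 and 1520 in wild type. These groups did not overlap either, as for 20.6% of all genes, and the difference was -0.57 ± 0.17 (0.0444), 1 of 6 where 5.13% were called lower. Without replicate 2 of wild type E14.5 R1/2, it was -0.30 with an adjusted p of 0.611, and the call was lost without any 1 of 12 other libraries at adjusted p of 0.0501 to 0.144. Without replicate 1 of the same group, the library with the high neutrophil and monocyte markers, it was -0.82 (0.0192). From E12.5 to E14.5 in R1/2 Mpp1 alone was called, higher by 1.02 in wild type and by 0.68 in Gata1s, where 0.784% and 1.08% of all genes were called higher. Both calls were lost on leaving out single libraries, the first without replicate 2 of wild type E12.5 R1/2 (0.74, 0.17) or replicate 2 of wild type E14.5 R1/2 (0.76, 0.159), while it was 1.28 (0.00526) without the other E14.5 library, and the second without any 1 of 5 Gata1s R1/2 libraries at adjusted p of 0.0577 to 0.273.

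Averaged over the 4 combinations, 4 of 6 members were lower in Gata1s, where 25.6% of all genes were called lower. Mpp1 was at -1.04 ± 0.09 (limma adjusted p = 1.85e-07) and Add1 at -0.34 ± 0.06 (0.000276), and these calls held in every alternative and without each library. Epb4.1 at -0.30 ± 0.10 (0.0227) and Ank1 at -0.25 ± 0.08 (0.0129) were called too. The Epb4.1 call was lost without replicate 3 of wild type E12.5 R3 (-0.28, 0.0576), replicate 2 of wild type E14.5 R1/2 (-0.20, 0.137) or replicate 2 of wild type E14.5 R3 (-0.21, 0.121), and the Ank1 call without the last (-0.21, 0.0567). Both were also lost without the prefix term (-0.16 and -0.19), with values scaled to the library total (-0.15 and -0.10) and with quantile normalisation (-0.07 each). Add2 at 0.08 and Tmod1 at -0.04 were not called. Of the members, Mpp1 was the 1 gene whose Gata1s libraries lay below all wild type libraries in each of the 4 combinations, as did 5.08% of all genes tested.

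Within a library, ratios between members do not depend on how libraries are scaled. Of the 15 pairs, 7 had ratios that did not overlap between genotypes in any of the 4 combinations. Of these 7 pairs, 5 hold Mpp1 and are not separate results, and the share over all pairs of tested genes was not computed. The separation was seen after the values were known and is given as a description with no test. Add2 over Add1, the β over the α adducin, had a log2 ratio of 0.13 and 0.44 in wild type E12.5 R1/2 against 0.56 to 0.71 in Gata1s. In E12.5 R3 it was 0.12 to 0.27 against 0.68 and 0.69, in E14.5 R1/2 0.18 and 0.32 against 0.49 to 0.70, and in E14.5 R3 -0.06 and 0.03 against 0.45 and 0.50. The mean ratio was thus 0.33 to 0.49 higher in Gata1s in every combination, while a ratio to Add1 lay higher without overlap in all 4 for 7.06% of the other genes tested. Add2 over Ank1 was likewise higher in all 4, and the share of other genes for which a ratio to Ank1 was so was not computed. Mpp1 was lower against each of the other 5 members in all 4, and against Add1 by 0.20 and 1.43 at E12.5 in R1/2 and R3 and by 0.40 and 0.63 at E14.5. A ratio to Add1 lay lower in all 4 for 1.67% of genes, and a ratio to Mpp1 lay higher in all 4 for 25.1%.

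**Figure D4:**
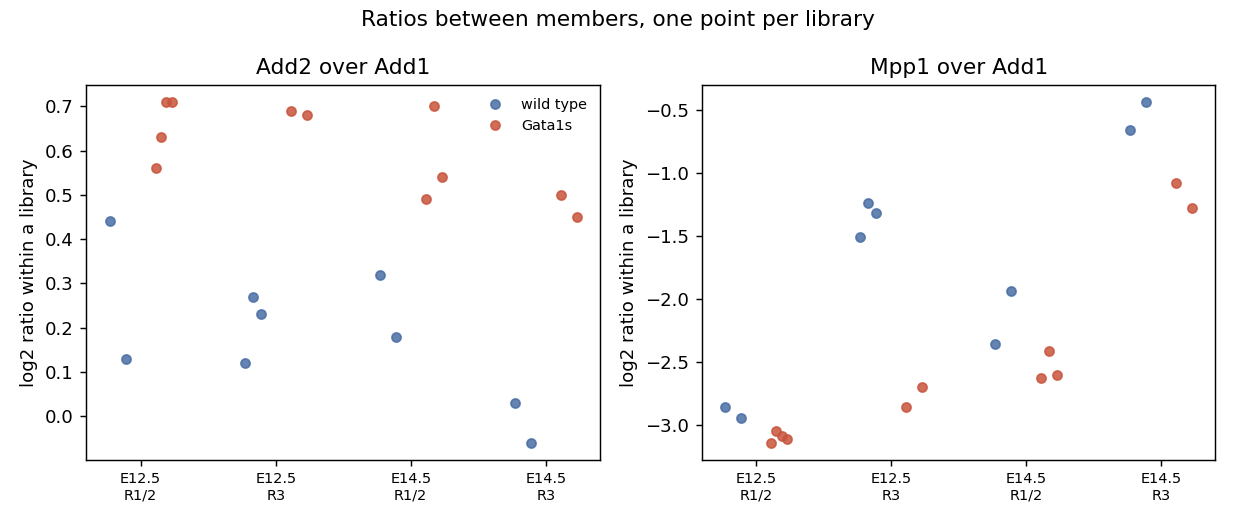
Log2 ratio of normalised counts within each library, Add2 over Add1 on the left and Mpp1 over Add1 on the right, 1 point per library. The Gata1s points lie above wild type in every column on the left and below it in every column on the right.

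The third adducin, Add3 (γ adducin, which pairs with α adducin in most tissues), was higher in Gata1s in all 4 combinations. In E12.5 R3 it was at 527 to 668 normalised counts in wild type and at 881 and 1015 in Gata1s. In E14.5 R3 it was at 428 and 562 against 1668 and 2172, and the groups overlapped in none of the 4 combinations. The differences were 0.91 ± 0.11 and 0.60 ± 0.12 at E12.5 in R1/2 and R3 and 1.02 ± 0.11 and 1.88 ± 0.13 at E14.5, with a mean of 1.10 ± 0.06 (limma adjusted p = 1.07e-09). Add3 fell from R1/2 to R3 in wild type, by 0.64 ± 0.11 at E12.5 and by 0.81 ± 0.12 at E14.5, and in Gata1s at E12.5 by 0.95 ± 0.11. In Gata1s at E14.5 its change was 0.05 ± 0.12, which did not pass. With only the 2 groups compared in the fit, the E14.5 R3 call was lost (adjusted p = 0.0573).

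Of 22 other genes in the families of the membrane skeleton proteins, most of them known mainly from other tissues, 13 were measured well enough to test. Over the mean of the combinations 7 were higher in Gata1s and 2 lower, with a median of 0.45 against -0.03 for all genes tested, of which 19.7% were called higher. Epb4.1l1, the neuronal member of the protein 4.1 family, was at 243 to 399 in wild type E12.5 R3 and at 1864 and 1894 in Gata1s. In E14.5 R3 it was at 260 and 349 against 5056 and 6635, and in R1/2 at 5.81 to 37.5 against 57.9 to 128. No groups overlapped, and the difference was 2.19 ± 0.31 to 3.89 ± 0.33, with a mean of 2.99 ± 0.16 (limma adjusted p = 6.48e-10). It rose from R1/2 to R3 in both genotypes, as Epb4.1 did. Epb4.1l4b, another member, was at 9.06 to 15.2 in wild type E12.5 R3 against 81.7 and 140 in Gata1s, with a mean difference of 2.38 ± 0.18 (2.65e-08). Its R1/2 calls were lost without 1 library each, replicate 1 of wild type E12.5 R1/2 (0.24) or replicate 2 of wild type E14.5 R1/2 (0.129). Epb4.1l2 was higher by 0.45 ± 0.09 in the mean, and by combination it was called in R3 alone. The mean of Epb4.1l5, at -0.28 ± 0.13, did not pass with limma (0.0879) but did with edgeR (0.0256).

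Ank3, encoding ankyrin G, was higher by 1.52 ± 0.27 on average (limma adjusted p = 0.000264), at low levels of 2.42 to 40.9 in the wild type and 10.8 to 102 in the Gata1s libraries. By combination Ank3 was called in R3 alone. In the tropomodulin family, Tmod3, the form of most other tissues, was at 666 to 1008 normalised counts over the 20 libraries and was not called between sorts in any of the 4 comparisons. The log2 ratio of Tmod1 to Tmod3 went from between -2.42 and -0.62 in R1/2 to between 1.86 and 3.98 in R3. Transcript lengths were not used, so the sign of this ratio does not compare transcript numbers. The mean genotype difference of Tmod3 was -0.15 ± 0.04 (0.00818), and it was lost with values scaled to the library total (0.00). Among the relatives of Mpp1, Mpp2 was higher in Gata1s by 0.57 ± 0.05 and Mpp7 was lower, at -0.46 ± 0.05, while Mpp5 at -0.05 and Mpp6 at -0.02 were not called in the mean. By combination Mpp2 was not called in E12.5 R3, where its libraries overlapped. Mpp5 was called lower in E12.5 R1/2, at -0.31 ± 0.09 (0.0335), and higher in E14.5 R3, at 0.41 ± 0.10 (0.00513). The relatives thus went both ways.

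**Figure D5:**
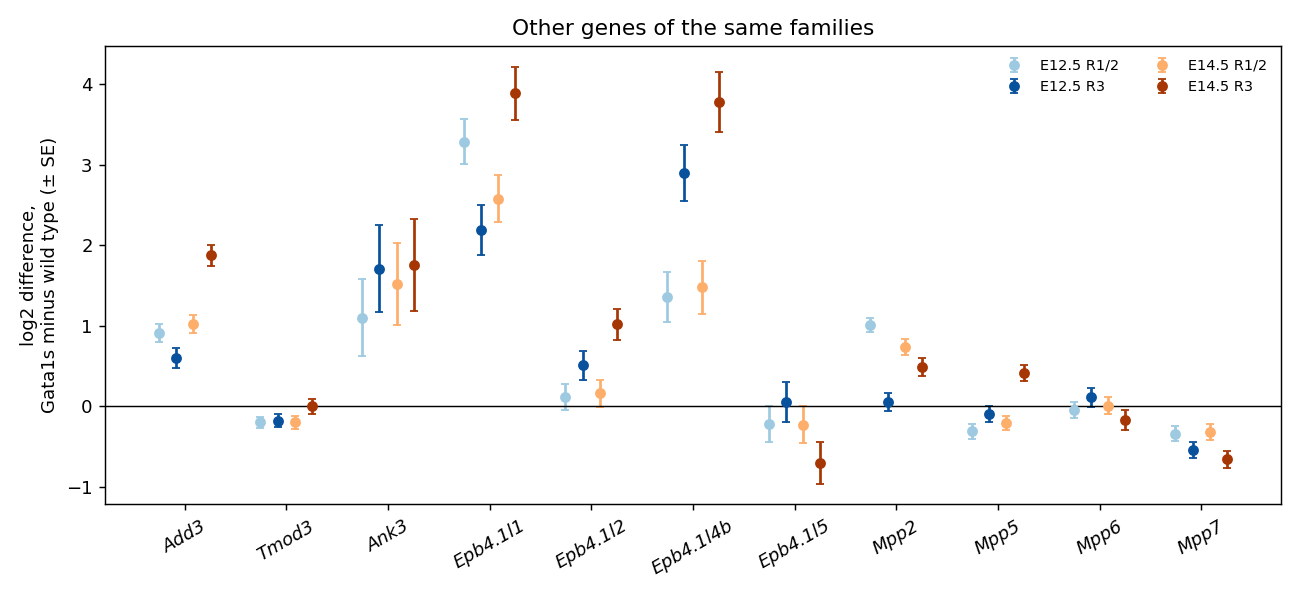
Log2 difference of Gata1s over wild type, with its SE, for the tested relatives of the members in the 4 combinations of day and sort. Add3, Epb4.1l1 and Epb4.1l4b lie above 0 in all 4, and Mpp7 lies below.

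Among 17 tested partners of the skeleton (the proteins it binds, actin, tropomyosins and the membrane proteins), E12.5 R3 had 7 lower in Gata1s and 6 higher, with a median of -0.17, against 21.7% of all genes called lower and 14.2% called higher. Those lower were Slc4a1 (band 3), Epb4.2 (protein 4.2), Gypc (glycophorin C), Rhag, Stom, Epb4.9 (dematin) and Actb, and those higher were Tpm3, Flot2, Dlg1 and the actin capping genes Capza1, Capza2 and Capzb. At E14.5 R3 the counts were 2 lower, Stom and Actb, and 6 higher, where 20.7% of all genes were called lower and 16.8% higher. Stom, encoding the membrane protein stomatin, was at 13328 to 18939 in wild type E12.5 R3 against 5569 and 5937 in Gata1s, and at 27894 and 41632 against 19065 and 19773 at E14.5. It was lower in all 4 combinations, with a mean of -0.93 ± 0.07 (limma adjusted p = 4.02e-08), although its R1/2 calls were each lost without 1 wild type library, replicate 1 at E12.5 (-0.30, 0.285) and replicate 2 at E14.5 (-0.51, 0.173). Epb4.9 was at 18936 to 26791 in wild type E12.5 R3 against 11255 and 12216 in Gata1s, and at 32554 and 38898 against 32860 and 37365 at E14.5. Its differences were -1.23 ± 0.18 and -0.24 ± 0.19, the second not called (0.36), and the mean was -0.90 ± 0.09 (8.74e-07). Dlg1, a scaffold protein that binds protein 4.1, and Tpm3, a tropomyosin of the actin filaments, were higher in all 4, with means of 0.46 ± 0.04 and 0.45 ± 0.05.

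Across the 20 libraries the members followed each other closely, with Pearson's r of 0.943 to 0.993 over 15 pairs, as a description of points that share the sorts and the days. The genes most like each member were St3gal1, Atp6v0a1 and Golph3l for Ank1 (r = 0.998 each), Bnip3l, Tbcel and Gabarapl2 for Epb4.1 (0.998), and Ermap, Isca1 and Btrc for Add1 (0.998). For Add2 they were Eef2k, Psme4 and Tmem131 (0.996 to 0.997), for Tmod1 Cd24a, Ptp4a3 and Pcyt1b (0.996 to 0.997), and for Mpp1 Atg4a, Bsdc1 and Bpgm (0.993 to 0.996). Add1 had 246 genes at r of 0.99 or more, Ank1 216, Epb4.1 120, Add2 60, Tmod1 53 and Mpp1 16. The pattern of Mpp1 was thus shared by the fewest genes of the 6.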

How the data were processed

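Polyadenylated RNA was sequenced from 20 libraries, per the labels. The signal deposited by the authors is, per gene and library, a normalised count, that is reads divided by 1 factor per library, as the values show. The submitters' processing notes name mm9, mm10, Bowtie2, Trim Galore, DESeq2, HTSeq and TopHat2. Which of them served the RNA libraries, and the strand setting of the counting, are not given in the sources used here. Chromatin samples and 1 column matching no sample were not analysed here, and 27 entries with a date for a name (0.2 to 0.36% of values) were left out. The smallest step in a library counted as 1 read, and 100% of values were whole within a tolerance of 0.001.

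Log2 of the normalised count plus 1 entered limma 3.58.1 (R 4.3.3, eBayes with trend) for the 10720 genes whose mean reached 10, with 8 group means and a term for the prefix (residual degrees of freedom 11, or 15.8 after adding the prior). A call needs a p under 0.05 after Benjamini-Hochberg adjustment over all genes tested. The pseudocount makes fold changes of low genes too small. edgeR 4.0.16 and DESeq2 1.42.0 on recovered reads, other scalings, filters, pseudocounts, fits within a prefix and each library left out were alternatives, and the code was tested on simulated data. On recovered reads edgeR called 3820 genes between genotypes in R3 at E12.5 and 3179 at E14.5, against 3849 and 4013 by limma. Replicates of a group differed by more than counting error. Replicate numbers did not pair the samples: of 59 same-numbered pairs, 17 had deviations correlated over 0.1 (range -0.17 to 0.37). Pairs of libraries with unequal replicate numbers were not checked.

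The members, the lists of 17 tested partners and 13 tested relatives and the comparisons were chosen with earlier results of these data known. One gene of the partner and erythroblast marker lists is not reported here and was left out of their counts and sums. Text names all members, every tested relative in the adducin, tropomodulin, ankyrin, protein 4.1 and Mpp families, the 4 partners with the smallest adjusted p in the mean genotype effect, and for each member the 3 genes with the highest r.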

Additional observations from a re-analysis of the deposited data

Results flagged for a closer look

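Some differences between groups passed a test of the difference itself. The first is the change from R1/2 to R3, smaller in Gata1s than in wild type at E12.5: the interaction was -0.91 for Ank1, -1.89 for Epb4.1, -0.84 for Add1, -0.72 for Add2, -1.77 for Tmod1 and -2.13 for Mpp1 on the log2 scale. The second is the genotype difference in R3, which moved upward from E12.5 to E14.5 by 0.90 for Ank1, 1.59 for Epb4.1, 0.59 for Add1 and 1.41 for Mpp1. The 2 comparisons share the E12.5 R3 libraries and are not independent. In the 1 group of 4 libraries, no member had a library far from the others.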

How the results depend on the processing

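Increases from R1/2 to R3 kept 6 called members in all 4 comparisons under all 17 alternatives, apart from JC alone, which holds no Gata1s R3 library, and without each of the 20 libraries. The number of members called changed elsewhere as follows, and the cause was not tested. Within MS each wild type group has 1 library, so the counts within MS take their residual spread from Gata1s libraries alone. Within JC most groups have 1 library too. In E14.5 R1/2 JC has 1 library of each genotype, with a difference of 0.75 for Tmod1 and -0.22 for Mpp1. The number called in either direction for genotype in E12.5 R3 was 5 and ranged from 5 to 6 without single libraries. In E12.5 R1/2 it was 1, and 2 with quantile normalisation or only the groups compared, 4 within MS, and 0 without the prefix term, within JC or with a replicate block (1 to 3 without single libraries). In E14.5 R1/2 it was 1, and 0 with no filter, no prefix term, the replicate block, only the groups compared or thinned reads (0 to 1). In E14.5 R3 it was 1, and 4 within MS (1 to 2). For the mean it was 4, and 2 without the prefix term (2 to 5). For genotype by sort it was 6 at E12.5, and 1 with the replicate block (5 to 6), and 0 at E14.5, and 1 within MS (0 to 1). For genotype by day it was 0 in R1/2, and 5 within MS, and 4 in R3, and 2 with quantile normalisation (3 to 6). For the day effect it was 1 in wild type R1/2, and 2 with quantile normalisation, DESeq2, voom or scaling to the library total, 6 within MS, and 0 with no prefix term, within JC or only the groups compared (0 to 5). In wild type R3 it was 6, and 2 with quantile normalisation and 3 with scaling to the library total (4 to 6). In Gata1s R1/2 it was 1, and 0 with no prefix term, within JC or with the replicate block, and 4 with only the groups compared (0 to 1).

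Signs turned mostly in values that were not called. In E12.5 R1/2 Ank1 was at -0.02 with quantile normalisation, -0.35 within JC, -0.08 with the replicate block, -0.04 with edgeR, -0.03 with DESeq2, and -0.38 to 0.40 without single libraries, called at both ends (adjusted p = 0.0272 and 0.0369). Add1 was at 0.08 within MS and -0.22 to 0.13 without single libraries, Add2 at -0.02 within JC and -0.03 to 0.68, and Mpp1 at -0.52 to 0.04. In E12.5 R3 Add2 was at 0.07 with quantile normalisation and 0.05 with scaling to the library total. In E14.5 R1/2 Epb4.1 was at 0.42 within JC and -0.41 to 0.19 without single libraries, Add1 at 0.06 within JC, and Tmod1 at -0.08 within MS and -0.07 to 0.74 without single libraries. In E14.5 R3 Epb4.1 was at -0.17 within MS and with only the groups compared, and at -0.17 to 0.38 without single libraries. For the mean, Tmod1 was at 0.01 with upper-quartile scaling and thinned reads, 0.09 with quantile normalisation, 0.11 without the prefix term, 0.10 with scaling to the library total, and -0.22 to 0.10 without single libraries. Add2 was at -0.04 to 0.14 without single libraries. Mpp5 was at 0.09 with scaling to the library total, and Mpp6 at 0.03, 0.02, 0.01 and 0.12 with upper-quartile scaling, quantile normalisation, no prefix term and scaling to the library total, and at -0.08 to 0.03 without single libraries. The called increase of Ank1 with day in wild type R3 turned to -0.05 with quantile normalisation.

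Scaling to the library total and thinned reads were chosen after seeing the data. The replicate block, whose numbers did not pair the samples, ended 5 of the 6 calls of genotype by sort at E12.5, those of Ank1 (-0.69, adjusted p = 0.346), Epb4.1 (-1.90, 0.0701), Add1 (-0.75, 0.224), Add2 (-0.48, 0.533) and Tmod1 (-1.72, 0.134). It also ended those of Tmod1 in E12.5 R3 (0.0658) and R1/2 (0.144), Mpp1 in E14.5 R1/2 (0.0989) and by day in Gata1s R1/2 (0.135), Epb4.1 in the mean (0.0673), Add1 in genotype by day in R3 (0.0839), Add3 in E12.5 R3 (0.0811), and Mpp7 in R1/2 at E12.5 (0.104) and E14.5 (0.0792). Groups of 2 to 4 libraries limit the precision, and the R3 comparisons have 1 wild type library of the MS prefix per day.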
